A study of Mus musculus with 113 samples.

Results

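Single cells of stage 4 of neural differentiation were compared with single cells of stage 3. The cells were chosen by their labelled collection time alone, 144 and 216 h for stage 4 and 84 and 106 h for stage 3, which gave 16 cells per stage and 8 per time point, 32 of the 64 single cells and of the 113 samples in the series. All came from R1 mouse embryonic stem (ES) cells, an untreated line carried through SFEB culture, in which dissociated cells form floating aggregates in serum-free medium. Cells were picked by hand and sequenced singly, and cell populations were sequenced in parallel at the same times. Under the culture protocol the aggregates were dissociated and replated on PDL, laminin and fibronectin in GMEM-N2 medium on the day of the 144 h collection, so the 216 h cells had grown as replated cells. Time and culture format cannot be told apart here, and the labels do not say whether the 144 h cells were taken before or after replating. No separate cultures are named for the cells of a time point, so each set of 8 cells counts as 1 sample.

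In this kind of culture ES cells leave the pluripotent state, pass through cells that resemble the epiblast and the neural plate, and become neural progenitors, dividing cells that give rise to neurons and later to glia. Progenitors keep themselves from becoming neurons in part through Notch signalling, in which a ligand on 1 cell activates a receptor on its neighbour and so induces repressors of the Hes and Hey families. Cells that escape that repression turn on proneural factors and begin to make neurons.

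Levels are given as deposited, as log10(RPKM + 1), for 11449 genes. The authors had quantile normalized the cells, and all 32 share the same highest value of 4.13 and nearly the same summed RPKM, from 437419 to 439008. Read counts were not used here, so the number of genes above 0 stood in for sequencing depth. That number ran from 8240 to 9067 (median 8550.5) at 84 h, from 6536 to 8335 (median 7270) at 106 h, from 5648 to 10016 (median 6145) at 144 h and from 6771 to 8957 (median 7951.5) at 216 h. Of the 8 cells of 106 h, 7 lay below all cells of 84 h, and the cells of stage 4 spanned the whole range. The lowest value above 0 moved with it, since it corresponded to 0.00228 to 0.00880 RPKM at 84 h but to as much as 0.221 RPKM at 144 h. Each cell had 4914 to 5214 genes above 0.5 RPKM, but quantile normalization makes such numbers nearly equal, so they do not show that detection was comparable. For some genes described by their share, the number of cells above 0.5 RPKM is given as a second measure. For the others only the number above 0 is given.

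The stages fitted their label by the means of the 4 marker genes, which were all higher in stage 4. Single cells did not all do so, among them cell 16 of 216 h, described below. Fabp7, a fatty acid binding protein of radial glia and other neural progenitors, had a lowest, median and highest level of 0.00, 0.02 and 1.57 at 84 h, of 0.00, 0.33 and 1.84 at 106 h, of 0.00, 1.62 and 2.01 at 144 h and of 0.27, 2.42 and 2.98 at 216 h. Its means rose over the time points from 0.32 ± 0.59 and 0.59 ± 0.72 to 1.27 ± 0.73 and 1.99 ± 1.01 (SD over 8 cells), and it was above 0 in 10 of 16 stage 3 cells and 15 of 16 stage 4 cells. The stages overlapped, through 3 stage 3 cells at 1.57 or more and through 5 stage 4 cells below 0.8. Hes5, a Notch-induced repressor of neuronal differentiation, drew the stages furthest apart among these 4 genes in the share of cells. It was above 0 in 3 of 16 stage 3 cells, where it reached at most 0.34, and in 13 of 16 stage 4 cells, with a median of 1.22 and a maximum of 2.34 at 144 h and a median of 1.14 and a maximum of 2.26 at 216 h. Its mean was 0.06 ± 0.12 and 0.03 ± 0.09 at 84 and 106 h and 1.05 ± 0.87 and 1.07 ± 0.69 at 144 and 216 h.

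Sox11, a transcription factor of progenitors and young neurons, was above 0 in all 32 cells, so its share did not change. Its level did, from 0.32 ± 0.35 and 0.41 ± 0.55 at 84 and 106 h to 1.17 ± 0.72 and 1.38 ± 0.70 at 144 and 216 h. Nes, which encodes the progenitor intermediate filament nestin, was likewise above 0 in all cells, with means of 0.47 ± 0.53, 0.62 ± 0.67, 1.401 ± 0.62 and 1.10 ± 0.62 in order of time. For these 2 genes the highest stage 3 cells, at 1.35 and 1.73, lay above 1 or both of the stage 4 medians, and the lowest stage 4 cell lay at 0.11 and 0.07. Over all cells the differences between stage means were 1.17 for Fabp7, 1.02 for Hes5, 0.91 for Sox11 and 0.70 for Nes. Without cell 16 of 216 h, described below, they were 1.26, 1.09, 0.99 and 0.78. On the mm9 build, in the GENCODE M1 annotation, these protein-coding genes lie at chr10:57504687-57508256 (Fabp7, plus strand), chr4:154335032-154336480 (Hes5, plus strand), chr12:28025562-28027574 (Sox11, minus strand) and chr3:87775000-87784373 (Nes, plus strand).

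**Figure D1:**
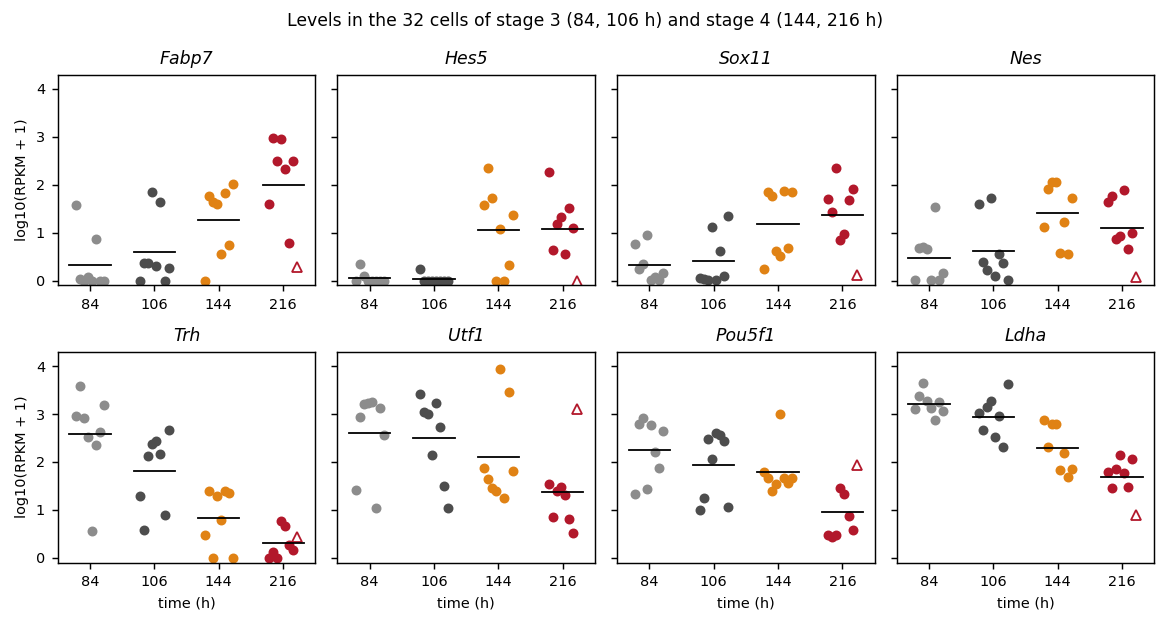
Level of 8 genes, as log10(RPKM + 1), in each of the 8 cells per time point (circles) at 84 and 106 h (stage 3, greys) and at 144 and 216 h (stage 4, orange and red), with the time point mean as a black line and cell 16 of 216 h as an open triangle. Hes5 is at most 0.34 in stage 3 and reaches 2.34 in stage 4, while Trh and Ldha step down at each time point and the open triangle stands with the stage 3 cells for Utf1.

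To describe the whole file, a gene was called higher or lower in stage 4 when its stage means differed by at least 0.5 and both stage 4 time point means lay on the same side of both stage 3 means. By this rule 356 of 11449 genes (3.11%) were higher and 364 (3.18%) were lower, and the median difference over all genes was -0.000145. These are descriptions of size with no test, since an exact two-sided test of 2 time points against 2 cannot give a p below 0.333. Without cell 16 of 216 h the counts were 394 and 402, and 336 and 346 genes were called in both settings. With cell 16 of 144 h left out instead, the counts were 389 and 401. On log10 of the mean RPKM + 1, which lets a few cells with high values set a gene, the counts were 1274 and 960. With a pseudocount of 0.1 they were 869 and 989. In the same direction, 207 of the genes called higher and 158 of those called lower were called under each of 5 other settings. These settings varied cells, averaging and scale, and 1 of them, rescaling RPKM to equal sums, could change little because the sums were nearly equal. On log10 of the mean RPKM + 1, 4 of the 720 called genes had the other sign.

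The 12 largest rises that held without cell 16 of 216 h were led by Spsb4, which encodes a SOCS box protein of ubiquitin ligases. It was above 0 in 5 of 16 stage 3 cells, with a maximum of 0.56 at 84 h and 1.29 at 106 h, and in all stage 4 cells, with a lowest, median and highest level of 1.36, 1.92 and 3.11 at 144 h and of 0.53, 1.19 and 2.90 at 216 h. The 144 h cells thus lay above every stage 3 cell, while the 216 h cells overlapped with the highest of them, and the stage means differed by 1.58. Wbp1, a WW domain binding protein, rose by 1.46 on means of 0.35, 0.87, 1.91 and 2.23 in order of time. Ckb, the brain-type creatine kinase, was found in every cell and rose by 1.31, with means of 1.97 and 1.57 in stage 3 and 2.69 and 3.48 in stage 4, and its median at 216 h was 3.74. Tspan3, a tetraspanin, rose by 1.17 from means of 1.04 and 1.16 to 2.16 and 2.38, with the lowest stage 4 cell at 1.39.

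Vtn encodes vitronectin, an adhesion protein of the extracellular matrix. It was above 0 in 1 of 16 stage 3 cells and 14 of 16 stage 4 cells, but most of its rise of 1.24 came at 216 h, where its median was 2.38 and its maximum 3.69 against 0.48 and 0.99 at 144 h. Dbx1, a homeodomain factor of ventral interneuron progenitors, was listed at 0 in all cells of 84 h, averaged 0.36 at 106 h and 1.25 and 1.49 at 144 and 216 h, and reached 3.73. Nr2f1, a nuclear receptor of forebrain patterning, averaged 0.01 and 0.36 in stage 3 and 1.61 and 1.06 in stage 4, and Fgfr3, an FGF receptor of progenitors, 0.00 and 0.10 against 1.37 and 0.88. Hey1, a Notch-induced repressor, went from 0.13 and 0.15 to 0.87 and 1.53. Ly6h, a GPI-anchored protein of the brain, and Gm1673 rose by 1.20 and 1.08. Fabp7, described above, completed the 12 at 1.17. Of these 12 genes, only Spsb4, Wbp1, Ckb and Tspan3 were above 0.5 RPKM in all 16 stage 4 cells.

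The largest fall was that of Trh, the precursor of thyrotropin-releasing hormone. Its lowest, median and highest levels were 0.56, 2.77 and 3.59 at 84 h, 0.58, 2.15 and 2.67 at 106 h, 0.00, 1.04 and 1.397 at 144 h and 0.00, 0.22 and 0.76 at 216 h, a difference of -1.63 between the stages. The 216 h cells overlapped only with the lowest stage 3 cells. Car2, a carbonic anhydrase, averaged 2.71 and 1.87 in stage 3 and 1.60 and 0.28 in stage 4 (difference -1.35), and its 106 and 144 h cells overlapped widely. Rhog, a small GTPase, and Hprt, the purine salvage enzyme, differed by -1.27 and -1.20. Rbpms2, an RNA-binding protein, averaged 2.44, 1.98, 1.43 and 0.59 in order of time, and Haus1, a subunit of the augmin complex of the spindle, 1.37, 1.71, 0.50 and 0.27. Slc7a7, an amino acid transporter subunit, Lyar, a nucleolar protein, Nup37, a nuclear pore protein, and Thg1l, a tRNA guanylyltransferase, differed by -1.14, -1.13, -1.11 and -1.07. Ldha, lactate dehydrogenase A, and Tdgf1, the NODAL co-receptor Cripto, completed the 12, at -1.10 and -1.05. On log10 of the mean RPKM + 1 the falls of Car2, Lyar and Thg1l were smaller, at -0.65, -0.60 and -0.70. Those of Trh, Rhog, Slc7a7, Nup37 and Tdgf1 were larger on that scale. On mm9 Spsb4 lies at chr9:96843901-96919262 and Trh at chr6:92192055-92194644, both on the minus strand.

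A gene was called on the share of cells when the share above 0 differed by at least 50 percentage points and the time points of the stages did not overlap. In stage 4, 181 genes (1.58%) were found in more cells and 257 (2.24%) in fewer, with a median share difference of 0 over all genes. These counts are fragile. Of the called genes 72 and 113 stood exactly at the limit of 50 points, so that the counts without cell 16 of 216 h were 152 and 199, while other single cells took them as low as 113 and 161. With detection set above 0.5 RPKM they were 159 and 120, of which 54 and 54 were shared with the first call. The genes named next differed by at least 50 points on both measures.

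Bmp1, a procollagen protease that also acts on BMP antagonists, was above 0 in 1 of 16 stage 3 cells and 15 of 16 stage 4 cells, and above 0.5 RPKM in 0 and 10. Tox2, an HMG box factor, and Rfx4, a ciliary transcription factor of the neural tube, were listed at 0 in all 16 stage 3 cells and were above 0.5 RPKM in 11 and 8 stage 4 cells. Slit2, a secreted axon guidance cue, was above 0 in 1 and 14 cells, and Sgce, a sarcoglycan, in 2 and 15. In the other direction Wnt8a, a WNT ligand of the early embryo, was above 0 in 13 of 16 stage 3 cells, with a maximum of 2.63, and in 0 of 16 stage 4 cells. Dnajc12, a co-chaperone, went from 16 to 3 cells, Mogat2, an acyltransferase, from 16 to 4, and Ell3, an elongation factor expressed in ES cells, from 16 to 4. Actn3, a muscle actinin, also went from 16 to 4 cells, and 1110007C09Rik from 15 to 2.

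No gene separated the stages cell by cell. The number of genes with every stage 4 cell above every stage 3 cell was 0, as was the number with every stage 4 cell below, and both remained 0 without cell 16 of 216 h. The genes that came closest, picked after their values were seen, are given as the share of the pairs of a stage 4 and a stage 3 cell in which the stage 4 cell was higher, with each tie counted as 0.5 of a pair. Plxnb1, a plexin receptor, led the rises with 97.3% of pairs, from stage means of 0.03 and 0.85, before Spsb4 (96.5%), Bmp1 (96.3%) and Fgfr3 (96.1%). At the other end this share was 2.15% for Rpl5, a ribosomal protein, 2.34% for Eno1, a glycolytic enolase, and 3.91% for Ldha. Rpl5 varied little between cells, so that a modest difference parted most of them. It ran from 3.12 to 3.46 at 84 h and 3.18 to 3.51 at 106 h, and from 2.49 to 3.02 at 144 h and 2.49 to 3.24 at 216 h. Npm1, the nucleolar protein nucleophosmin, had a stage mean of 3.71 in stage 3 and 2.91 in stage 4.

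Lists of genes with a known role were described in the same way, by the members called and by the median difference. Over all genes 3.11% were called higher and 3.18% lower, and the median was -0.000145, and each list is to be read against these. Genes named from here on only as list members, among them Sox2, Sox3, Hes1, Zfp42 and Gapdh, were chosen after their values were seen. Of 19 neural progenitor genes in the file, 7 were called higher (Fabp7, Fgfr3, Hes5, Vim, Sox11, Ednrb and Nes) and 0 lower, and the list median was 0.33. Vim, the intermediate filament vimentin, was found in all cells and rose by 1.00, from means of 2.13 and 1.91 to 2.91 and 3.12, and Ednrb, the endothelin B receptor, rose by 0.78. The SOXB1 factors, which mark the neural plate as well as progenitors, were not called. Sox2 differed by 0.04 and Sox3 by 0.04. Sox1 averaged 0.09, 0.87, 0.14 and 0.66 in order of time, and its difference of -0.08 was 0.07 with the median over cells and 0.01 on log10 of the mean RPKM + 1. Pax6, a patterning factor of the neural tube, differed by 0.25 with its highest mean, 0.78, at 144 h. Zfp521 and Zeb2, zinc finger factors of neural commitment, differed by 0.23 each. Zfp521 was listed at 0 in all stage 3 cells and above 0 in 10 stage 4 cells, but above 0.5 RPKM in only 4.

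Averaged over the list, the progenitor genes stood at 0.23 to 0.70 in the 16 stage 3 cells and above that range in 13 of 16 stage 4 cells. The exceptions were cells 11 and 16 of 144 h, at 0.61 and 0.42, and cell 16 of 216 h, at 0.22, the lowest of all 32. The same cells were high in pluripotency genes. The mean of the pluripotency list was 0.92 and 1.27 in cells 11 and 16 of 144 h and 1.06 in cell 16 of 216 h, whereas the other stage 4 cells lay between 0.12 and 0.69.

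**Figure D2:**
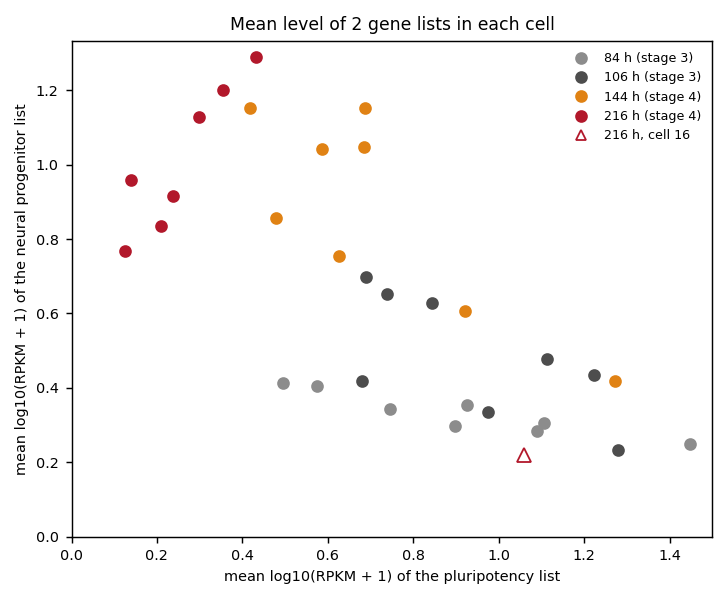
Mean log10(RPKM + 1) of the naive and core pluripotency list (x axis) against that of the neural progenitor list (y axis) in each of the 32 cells, coloured by time point, with cell 16 of 216 h as an open triangle. In 13 of the 16 stage 4 cells the progenitor list lies above the highest stage 3 cell (0.70), and cell 16 of 216 h lies at 0.22, just below the stage 3 cells.

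Of 15 neuronal genes 0 were called in either direction, a share near that of all genes, and the median difference was 0.07. Tubb3, the neuronal beta-tubulin, had means of 1.34, 1.32, 0.75 and 1.53 in order of time, and Stmn2, a microtubule regulator of growing axons, averaged 0.88, 1.41, 1.18 and 0.34, lowest at 216 h. Elavl3, an RNA-binding protein of young neurons, and Dpysl3, a growth cone protein, were above 0 in 1 of 16 stage 3 cells each and in 11 and 10 of 16 stage 4 cells, with differences of 0.37 and 0.37. Ncam1, the neural cell adhesion molecule, differed by 0.43, on means of 0.11 at 144 h and 0.76 at 216 h. On log10 of the mean RPKM + 1, where the few cells with high levels weigh most, Elavl3, Dpysl3 and Ncam1 differed by 1.13, 1.24 and 0.94, and Tubb3 by 0.11 in place of -0.19.

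Among neurogenic factors Hes6, which counteracts Hes1, and Btg2, an antiproliferative gene of progenitors about to divide into neurons, were the 2 of 11 called higher, at 0.87 and 0.61, with 0 lower, and the list median was 0.37. With the median over cells in place of the mean the list's median difference was 0.00, while Hes6 and Btg2 still differed by 0.64 and 0.57. Other members were seen in few cells. Neurog2, a proneural factor, was listed at 0 in all stage 3 cells and stood at 2.12 in cell 14 of 144 h, 1.10 in cell 10 of 144 h and 2.17 in cell 4 of 216 h, with no other cell above 0.38. Ebf3, a factor downstream of the proneural genes, had its highest levels in the same 3 cells, at 2.39, 1.16 and 2.13. Cell 4 of 216 h also had the highest Tubb3 level of the 32 cells, 3.44. In cells 10 and 14 of 144 h Hes5 was listed at 0, and in cell 4 of 216 h it was 1.19.

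Of 21 naive and core pluripotency genes, 9 were called lower and 0 higher, with a list median of -0.29 and 4 differences above 0. Summed over the list, mean RPKM was 2010 and 1822 at 84 and 106 h, 1970 at 144 h and 362 at 216 h, so that the sum of stage 4 lay below both stage 3 sums at 216 h alone. They were Tdgf1, Nanog, Utf1, Gdf3, Sall4, Pou5f1, Dppa4, L1td1 and Dppa5a. Pou5f1, the POU factor OCT4, fell from means of 2.25 and 1.93 to 1.78 and 0.95, and it was still above 0 in all 16 stage 4 cells, with 2.99 in cell 11 of 144 h. Utf1, a chromatin factor of ES cells, averaged 2.60 and 2.51 in stage 3 and 2.102 and 1.37 in stage 4, with a wide spread at 144 h, where the median was 1.73 and the maximum 3.94. It was the most abundant member, with mean RPKM of 963, 891, 1472 and 171 in order of time, and its difference of -0.82 was -0.05 on log10 of the mean RPKM + 1. Nanog averaged 1.41 and 1.43 against 0.62 and 0.40, and Sall4, a zinc finger partner of OCT4, 1.62 and 1.74 against 1.47 and 0.41. The Sall4 step thus lay mainly between the stage 4 time points, and its 144 h cells, at 0.64 to 2.26, overlapped widely with stage 3. Zfp42, known as REX1, was not called (difference -0.12).

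Among 12 formative epiblast genes 3 were called lower and 0 higher (list median -0.19). Dnmt3b, a de novo DNA methyltransferase, averaged 2.03 and 1.31 in stage 3 and 1.05 and 0.23 in stage 4. Fgf15 fell by 0.63, and Fgf5, the marker of the primed epiblast, by 0.52, the latter having been mostly a gene of the 84 h cells (mean 1.01 against 0.07 at 106 h). In the DNA methylation list Dnmt3l, the cofactor of these enzymes, was lower as well, by 0.61 on means of 0.69, 1.07, 0.23 and 0.32, so that 2 of 8 were called lower and 0 higher (list median -0.09). Of 13 epithelial and junction genes 4 were called lower and 0 higher, with a median of -0.28. Epcam, an adhesion molecule, fell from 1.88 and 0.99 to 0.89 and 0.25, Cldn7 and Cldn6, claudins of tight junctions, differed by -0.91 and -0.52, and the keratin Krt8 by -0.57. Krt18, its partner, differed by -0.52 but was not called, since its 144 h mean of 0.53 lay above that of 106 h, 0.43.

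In the Notch pathway 5 of 20 genes were called higher and 0 lower, with a median of 0.24. They spanned the pathway from ligand to target. Dll1, a ligand, went from means of 0.01 and 0.18 to 1.17 and 0.55, and Notch1, the receptor, from 0.16 and 0.11 to 0.73 and 0.79. The targets Hes5, Hey1 and Nrarp rose by 1.02, 1.06 and 0.59, Nrarp being a feedback inhibitor of the receptor's intracellular domain. Hes1, another target, was above 0 in 4 stage 3 and 3 stage 4 cells and differed by -0.07. The mean of the list exceeded that of every stage 3 cell (at most 0.48) in 10 of 16 stage 4 cells.

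Since Hes5 went from near absence to most cells, the bases before its start are shown. The motif GTGGGAA, the core recognised by the Notch effector RBPJ, was searched on both strands in the 250 bases before each RefSeq start on GRCm38.p6, with promoters found for 16 of the 20 Notch genes. It was present for 2 of those 16 genes (12.5%), Hes5 and Lfng, and in 6.18% of all 27025 genes with a promoter in the table (5.42% of 32851 promoters). In the Hes5 promoter, chr4:154960673-154960922 on the plus strand, capitals mark the matches, 1 on each strand. A match describes letters and not a bound site.
Hes5: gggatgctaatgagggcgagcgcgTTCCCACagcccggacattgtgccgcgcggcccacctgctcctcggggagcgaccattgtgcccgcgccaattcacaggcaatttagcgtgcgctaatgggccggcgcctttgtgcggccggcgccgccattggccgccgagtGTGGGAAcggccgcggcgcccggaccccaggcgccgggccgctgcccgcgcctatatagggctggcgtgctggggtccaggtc

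Glycolysis had the lowest median of the 24 lists, -0.49, and 8 of its 16 genes were called lower and 0 higher. Ldha, which makes lactate from pyruvate, ran from 2.87 to 3.65 at 84 h (median 3.19), 2.32 to 3.62 at 106 h (median 2.99), 1.68 to 2.88 at 144 h (median 2.24) and 0.89 to 2.14 at 216 h (median 1.79). All 216 h cells lay below all stage 3 cells for this gene, while 3 of the 144 h cells, at 2.79 to 2.88, lay among those of 106 h. The glucose transporters Slc2a3 and Slc2a1 differed by -1.03 and -0.72, with Slc2a3 at 1.74, 2.19, 1.47 and 0.40 in order of time. Eno1 fell by 0.80, but a near-identical copy listed as Gm5506 fell by 0.77, and reads of the 2 genes may not have been told apart. Pgam1, Pdk1, Pgk1 and Gpi1 were called as well, at -0.69, -0.62, -0.55 and -0.50. Gapdh, the most abundant member, differed by -0.29. Summed over the list, mean RPKM was 13206 and 13723 at 84 and 106 h and 6540 and 4330 at 144 and 216 h, and 11 of 16 stage 4 cells had a list mean below the lowest stage 3 cell (1.73). The median was between -0.39 and -0.55 under each other averaging, scale and choice of cells.

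The Ldha promoter is shown for this group. The motif ACGTG, the core of hypoxia response elements and, as CACGTG, of E-boxes, was searched in the same way. It was present before the start of 6 of the 14 glycolysis genes with a promoter in the table (42.9%; Hk2, Aldoa, Pgk1, Pgam1, Ldha and Slc2a1), and in 18.5% of all genes (16.6% of promoters). Of those 6 genes Hk2 and Aldoa were not called. Of the 2 Ldha promoters of the table, the 1 shown was picked for its number of matches, 5, the highest. It lies at chr7:46845554-46845803 on the plus strand, and the other promoter is not described here. Capitals mark the matches, and CACGTG holds the motif on both strands.
Ldha: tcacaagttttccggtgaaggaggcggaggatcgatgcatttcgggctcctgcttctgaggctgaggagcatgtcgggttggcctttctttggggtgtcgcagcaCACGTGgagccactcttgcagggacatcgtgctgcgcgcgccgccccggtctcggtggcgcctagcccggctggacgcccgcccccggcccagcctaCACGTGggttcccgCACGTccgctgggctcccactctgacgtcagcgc

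Lists of oxidative phosphorylation and of ribosomal proteins were drawn up by gene symbol. Of 79 genes of oxidative phosphorylation 1 was called higher (Ndufb5, of complex I, 0.51) and 1 lower (Sdhd, of complex II, -0.70), with a median of 0.01 that was -0.01 with a pseudocount of 0.1. Of 84 genes with symbols of cytosolic ribosomal proteins 2 were called lower (Rpl5 at -0.51 and Rps4y2 at -0.61) and 0 higher, but the list as a whole sat below 0, with 62 genes below and 21 above it and a median of -0.16. By their symbols alone the lists took in genes such as Cox4nb and Rps19bp1, which encode no such proteins. Without these 2 genes, a setting added after the values were seen, the calls were the same and the medians 0.01 and -0.16. All other members were kept by symbol alone, so the lists may hold further genes of this kind. Summed mean RPKM of the ribosomal list was 61692 and 74429 in stage 3 and 42560 and 46888 in stage 4. Since the cells were normalized to equal totals, a loss in these abundant genes and a gain elsewhere cannot be told apart.

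Of 20 DNA replication genes 1, Mcm3 of the replicative helicase, was called lower (-0.58) and 0 higher, with a median of -0.20, and of 20 mitosis genes 0 were called, with a median of -0.21 and 18 differences below 0. On log10 of the mean RPKM + 1 these medians were -0.07 and -0.05. Among 15 regulators of G1, Ccnd2, cyclin D2, rose by 0.95 from means of 0.08 and 0.47 to 1.14 and 1.31, and the inhibitor Cdkn1c, p57, by 0.83 from 0.62 and 0.45 to 1.15 and 1.57, with 0 called lower and a list median of 0.07.

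Among 16 regional patterning genes Nr2f1 and Meis1, a cofactor of HOX proteins, were called higher (1.15 and 0.74) and 1 gene lower, with a median of 0.13. Six6, an eye field factor, was listed at 0 in all cells up to 144 h and reached 2.09 in cell 12 of 216 h. Of 12 Hedgehog pathway genes the co-receptor Boc and the transcription factor Gli3 were called higher (0.56 and 0.53) and 0 lower, with a median of 0.16. Of 14 BMP pathway genes the target Id3 was called higher (0.86) and 0 lower, with a median of 0.02 that was -0.01 with a pseudocount of 0.1, while Id1 and Id2 differed by 0.58 and 0.61 with overlapping time points. In the Lin28 axis Lin28a, an RNA-binding protein that blocks let-7 maturation, was the 1 of 10 called lower (-0.64), with 0 higher, and Hmga2, a let-7 target, differed by 0.38. The median of that list was -0.05, and it was 0.02 on log10 of the mean RPKM + 1 and 0.01 with the median over cells. Of 15 imprinted genes Cdkn1c and Nnat, neuronatin, were called higher (0.83 and 0.83) and 0 lower (median 0.15). Igf2 and H19, which share a cluster, differed by 0.65 and 0.47 and were high at 216 h alone, where their means were 1.34 and 0.88 against at most 0.13 and 0.18 at the other times.

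Markers of other cell types were seen in some cells. The list mean lay above every stage 3 cell in 7 stage 4 cells for glial and 5 for fibroblast genes. For neural crest genes it did so in 3, and for mesoderm and endoderm genes in 0. Of 4 glial genes in the file 0 were called (median 0.21), and their summed mean RPKM was 0.409, 0.108, 16.05 and 27.3 in order of time. Gfap, Aqp4, Olig1, Pdgfra and S100b were not analysed here. Of 5 neural crest genes Twist1 was called higher (0.72) and 0 lower (median 0.28), with summed mean RPKM of 0.0656, 7.198, 78.6 and 72.5, and Sox10 was not analysed here. Mesoderm and endoderm genes, 7 in the file with 0 called and a median of -0.00184, summed to 132, 1.32, 3.95 and 57.6, of which T, the mesoderm factor brachyury, gave 121 at 84 h through 1 cell at 2.98. Foxa2, a factor of endoderm and of the floor plate, averaged 1.04 at 216 h. Of 9 fibroblast genes 0 were called (median 0.06), with sums of 43.8, 56.8, 124 and 119, of which Fn1, a fibronectin gene, gave 81.5 at 144 h and 22.1 at 216 h. The highest list means were those of cells 6 and 7 of 216 h, at 0.72 and 0.74. Among 16 stress and dissociation genes Gadd45g, which is also a proneural target, was called higher (0.63) and 0 lower (median 0.13), and Egr1, an immediate early gene, averaged 1.79 at 216 h against at most 0.65 at the other times. The part of handling in these values was not tested.

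**Figure D3:**
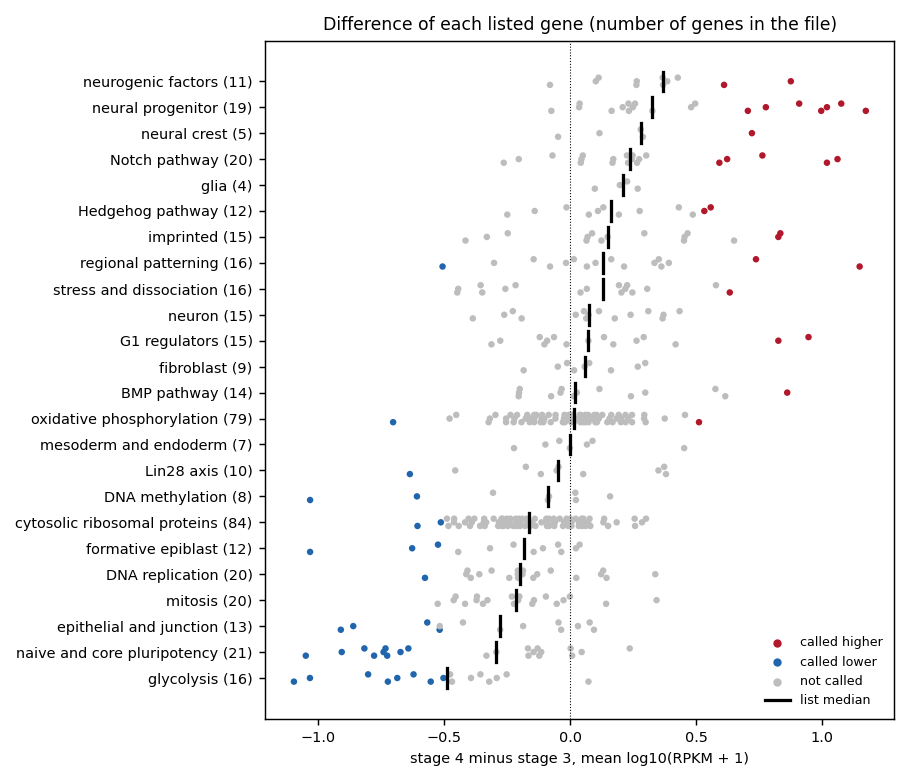
Difference between stage 4 and stage 3 in mean log10(RPKM + 1) for each gene of 24 lists, 1 point per gene, with genes called higher in red, called lower in blue and others in grey, the list median as a black bar and 0 as a dotted line. Medians run from 0.37 for neurogenic factors to -0.49 for glycolysis, and the pluripotency list has 9 blue points.

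The paper describes cell 16 of 216 h as its only outlier, a cell still in the original stage, which was not compared here. This cell stood apart from the other 7 cells of its time point. Its Vim level was 0.78 against 2.79 to 3.94 in the others, and its Nes, Sox11 and Fabp7 levels were 0.07, 0.11 and 0.27. Utf1 stood at 3.10 in this cell against 0.51 to 1.54, Sall4 at 2.19 against 0.00 to 0.32, Lyar at 2.47 against 0.00 to 0.64 and Slc2a3 at 2.00 against 0.05 to 0.42. It was not a stage 3 cell by every gene, since its Spsb4 and Wbp1 levels were 2.32 and 2.14, Trh was at 0.43, and its Ldha level of 0.89 was the lowest of the 32 cells. Among the genes whose stage difference moved most when it was left out were 4 at 1.01 or less in all other cells. Cpsf4l, Gstm3, a glutathione transferase, Nqo1, a quinone reductase, and Efna1, an ephrin, were at 3.18, 2.88, 2.70 and 2.55 in this cell, and their stage differences went from 0.15, 0.11, 0.09 and 0.08 to -0.04, -0.07, -0.08 and -0.08 without it.

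The parallel SFEB populations, with 1 library per time point, give the same comparison in other libraries. Differences were taken between the means of log10(FPKM + 1) at 144 and 216 h and at 84 and 106 h. All 356 genes called higher in the cells had at least 1 FPKM in 1 of these libraries, and 314 (88.2%) were higher in the populations too, against 50.8% of the 10965 genes of that level. Of 363 genes called lower in the cells 321 (88.4%) were lower in the populations, against 49.2% of all. By at least 0.3 it was 135 (37.9%) and 93 (25.6%), against 7.98% and 3.56% of all genes. In adherent monoculture, a second neural protocol, late (144 and 216 h) against early (80.5 and 101.5 h) libraries gave the same direction for 308 of 356 (86.5%) and 264 of 363 (72.7%), against 55.3% and 44.7% of all. In a population fewer cells of a type and less RNA per cell cannot be told apart.

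For the markers the population levels were 10.4, 19.1, 213 and 695 FPKM for Fabp7, 1.33, 4.94, 29.6 and 39.1 for Hes5, 20.6, 33.9, 67.4 and 139 for Sox11 and 19.8, 19.9, 50.2 and 63.9 for Nes, in order of time. Trh went from 595 and 331 FPKM to 84.8 and 28.0, and Pou5f1 from 387 and 221 to 117 and 65.3. All 19 progenitor genes were higher in these late SFEB populations, Sox1, Sox2 and Sox3 among them, against 17 of 19 in the first SFEB series (142 h against 80 and 103 h) and 13 of 19 in adherent culture. All 15 neuronal genes were higher too, with a median of 0.95. A population averages RNA over its cells, so the nearest value of the picked cells is that on log10 of the mean RPKM + 1, which was 0.21. Tubb3 went from 35.3 and 35.0 to 223 and 511 FPKM. Stmn2 was 46.7, 57.4, 76.4 and 230 FPKM, while on log10 of the mean RPKM + 1 it differed by -0.09 in the cells. The cause of these differences was not tested. Dnajc12, found in fewer stage 4 cells, rose in the populations, at 2.40, 2.94, 3.50 and 6.49 FPKM. The Hedgehog list had a median of -0.00237 in these populations, with 5 genes above 0 and 6 below. Its median was 0.07 in the first SFEB series and 0.05 in adherent culture. Of 79 genes of oxidative phosphorylation 14 were above 0 and 65 below in the parallel SFEB populations (median -0.05). Epithelial genes differed between the protocols. All 13 of 13 were lower late in the SFEB populations (median -0.37), but 8 of 13 were higher late in adherent culture (median 0.23), where Krt8 and Krt18 differed by 1.02 and 1.04.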

How the data were processed

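The authors aligned reads to mm9, and the submitters' processing notes name TopHat2 2.0.8b and Cufflinks 2.1.1, while the paper's methods name other releases of these tools. The single-cell values were used as deposited: by the authors' methods RPKM was quantile normalized between the 64 cells, filtered for genes above 0.5 RPKM in at least 8 cells, and turned into log10(RPKM + 1). In the deposited values some genes pass that level in as few as 2 of the 64 cells. The SFEB populations were deposited as FPKM that the authors had corrected with ComBat, and its negative entries were replaced by 0 here. The adherent populations were deposited by the authors as FPKM with no stated correction. Both were compared as log10(FPKM + 1).

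Columns were matched to samples by stage name and cell number. Members and lists were chosen with earlier results of these data known. Named genes were the 4 markers, genes the study names, the 12 largest rises and falls called with and without cell 16 of 216 h, the 6 largest called rises and falls in share, the 4 members of each list with the largest difference, and the 5 genes most moved by that cell. A few genes that these rules pick are not reported here. Other genes, and the motif searches, were chosen after the values were seen. Promoters were taken from RefSeq (GRCm38.p6). The code, in Python 3.11.15 with numpy 2.4.6, pandas 2.3.3 and matplotlib 3.10.9, was tested on simulated data.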

Additional observations from a re-analysis of the deposited data

Results flagged for a closer look

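In 116 groups of 8 cells (4 time points and 29 measures) the highest and lowest cell were compared with the nearest of the other 7, and in 17 groups 1 cell lay far from the rest. Chance flags about 1 in 20 groups where values are normally spread, which does not hold for measures at or near 0 in most cells, such as Hes5 and the glia and neural crest lists at 84 and 106 h.

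At 216 h cell 16 was the highest in the pluripotency list (1.060, next 0.433) and the glycolysis list (1.917, next 1.50) and the lowest in the G1 regulators (0.4722, next 0.885). At the same time cell 4 was the highest in the neuron list (1.110).

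At 144 h cell 14 was the highest in the neurogenic factors (1.373), cell 16 in the mesoderm and endoderm list (0.2778), and cell 8, which had the most genes above 0, was the lowest in ribosomal proteins (1.893).

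At 84 h the highest cells were cell 2 for Hes5 (0.3439), cell 6 for Nes (1.529) and for the mesoderm and endoderm list (0.8114), cell 4 for the formative epiblast list (1.129), cell 1 for the glia list (0.1527) and cell 3 for the neural crest list (0.02871). At 106 h they were cell 1 for Hes5 (0.2460), cell 12 for the neuron list (1.052), cell 5 for the glia list (0.05316) and cell 11 for the neural crest list (0.4962).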

How the results depend on the processing

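Of the 720 called genes 4 had the other sign on log10 of the mean RPKM + 1 and 1 with the median over cells, and 0 had it with a pseudocount of 0.1 or with any cell or time point left out. The counts of 356 genes higher and 364 lower were the same after rescaling RPKM to equal sums, which could change little because the sums were already nearly equal, and with a filter on cells, and were 381 and 529 with the median over cells. They were 1274 and 960 on log10 of the mean RPKM + 1 and 869 and 989 with a pseudocount of 0.1, where the cause was not tested. A limit of 0.3 gave 907 and 1035, and a limit of 1 gave 20 and 19. For the share of cells a limit of 25 points gave 595 and 1122 genes found in more and fewer cells, and detection above 0.5 RPKM gave 159 and 120.

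With 1 time point left out fewer means have to separate. Higher and lower genes then were 494 and 612 without 84 h, 545 and 664 without 106 h, 815 and 714 without 144 h and 762 and 600 without 216 h. Genes found in more and fewer cells were 476 and 280, 238 and 919, 615 and 576, and 155 and 558 in the same order.

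Leaving out each cell in turn gave 345 to 394 genes higher, 352 to 402 lower, 113 to 176 found in more cells and 161 to 239 in fewer, while 0 genes separated all cells with or without cell 16 of 216 h. Many shares stood exactly at 50 points, so that 1 cell moves them across the limit. Of 138 named genes 84 moved by more than 1 SD of the time point means on log10 of the mean RPKM + 1, 67 with a pseudocount of 0.1, 48 with the median over cells and 6 without cell 16, and 3, 1, 2 and 5 had the other sign, while 13 were at 0 with the median over cells. Of 24 list medians 16, 12, 9 and 0 moved and 1, 2, 1 and 0 had the other sign, with 6 at 0 with the median over cells. In the populations the shares in the same direction were 88.2% and 88.4% with no filter on FPKM, and 85.7% and 83.7% in the first SFEB series (142 h against 80 and 103 h). No paired analysis was possible because the cell numbers only name cells and the results come from no test. Read depth was not analysed here.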
